A study of Mus musculus with 12 samples.

Results

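The bone marrow niche of plasma cells was followed here through 9 transcripts of endothelial cells, megakaryocytes and stromal cells in sorted plasma cells. The genes were taken by symbol from the probe annotation: Pecam1, Kdr and Cdh5 for endothelium, Pf4 and Itga2b for megakaryocytes, and Cxcl12, Lepr, Sparc and Col1a1 for stroma and bone-forming cells. All 9 were found among the 19938 genes that have a probe set naming a single gene, and each has exactly 1 such probe set. The arrays came from 6 Zbtb32-/- and 6 wild-type (Zbtb32 +/+) samples, called biological replicates by the series text. In both groups splenocytes of CD45.2 donors immune to NP-CGG, a hapten on a carrier protein, had been given to CD45.1 recipients, which were then challenged with the antigen. After 7 days, marrow cells negative for B220, Ly6g, CD11b and CD45.1 and positive for CD138, CD45.2 and the hapten were sorted. The labels used here do not state the recipients' Zbtb32 genotype, the age of the mice, or whether a sample pools several of them.

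Plasma cells lodge in the marrow beside reticular stromal cells that secrete Cxcl12, the ligand of the receptor Cxcr4 on plasma cells. These stromal cells carry the leptin receptor and wrap the sinusoids, the thin-walled vessels of the marrow. Megakaryocytes, the precursors of platelets, also lie along the sinusoids and supply factors that plasma cells use. Stromal and endothelial cells lack the leukocyte marker CD45 that the sort required.

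Zbtb32 encodes a zinc finger protein of the BTB family, and the study asked what its loss alters in these cells. Its own probe set ran from 6.47 to 6.73 (median 6.53) in Zbtb32-/- arrays and from 6.39 to 6.88 (median 6.68) in wild-type arrays, as log2 RMA values. No label used here says which exons were removed, so the values of this probe set check no label. Of the plasma cell markers, Jchain, the joining chain of polymeric antibodies, averaged 13.65, and Xbp1, the driver of secretory capacity, averaged 13.02 over the 12 arrays. The neutrophil gene S100a9 averaged 12.55, and such levels of different probe sets do not settle how much of a sample was plasma cells. The mean of 12 plasma cell genes ran from 10.79 to 11.45 in Zbtb32-/- arrays and from 10.65 to 11.47 in wild-type arrays. Marker lists of other marrow cells differed between arrays, with the neutrophil mean highest in Zbtb32-/- replicate 6 and the monocyte mean highest in wild-type replicate 5. The mean of 13 neutrophil genes ran from 9.07 to 12.26 in Zbtb32-/- arrays and from 8.02 to 11.11 in wild-type arrays, and that of 14 monocyte genes from 7.45 to 9.01 in Zbtb32-/- and from 6.89 to 9.40 in wild-type arrays. The median value per array lay between 6.28 and 6.43.

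The main feature of the niche transcripts was a large spread between arrays of the same genotype, carried above all by Zbtb32-/- replicate 6 and wild-type replicate 5. Sparc, Cxcl12, Pf4 and Cdh5 varied by 3.57, 3.42, 3.41 and 2.32 log2 units over the 12 arrays. Their standard deviations stood at percentiles 99.7, 99.5, 98.9 and 97.8 of those of the genes tested. Col1a1 and Itga2b varied by 0.36 and 0.45 log2 units, at percentiles 5.7 and 12.1. In sorted bulk samples, more cells of a type and more RNA per cell cannot be told apart.

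None of the 9 differed between the genotypes after adjustment. The limma model tested 14993 genes above a filter on low values, and 0 of them passed an adjusted p of 0.05, a share of 0%. Without adjustment, p was under 0.05 for 642 genes (4.28%), of which 425 (2.83%) had a positive and 217 (1.45%) a negative difference, and 0 of the 9 niche transcripts were among them. Lepr lay below the filter, so 8 of the 9 entered that fit, and Lepr was read from a fit without the filter. The differences, Zbtb32-/- minus wild type, were negative for 7 genes and positive for 2, with a median of -0.09 against 0.01 over all genes tested. In all 9 genes the values of the genotypes overlapped. Groups without overlap occurred in 0.153% of the genes tested, and with Zbtb32-/- lower in 0.0734%.

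**Figure D1:**
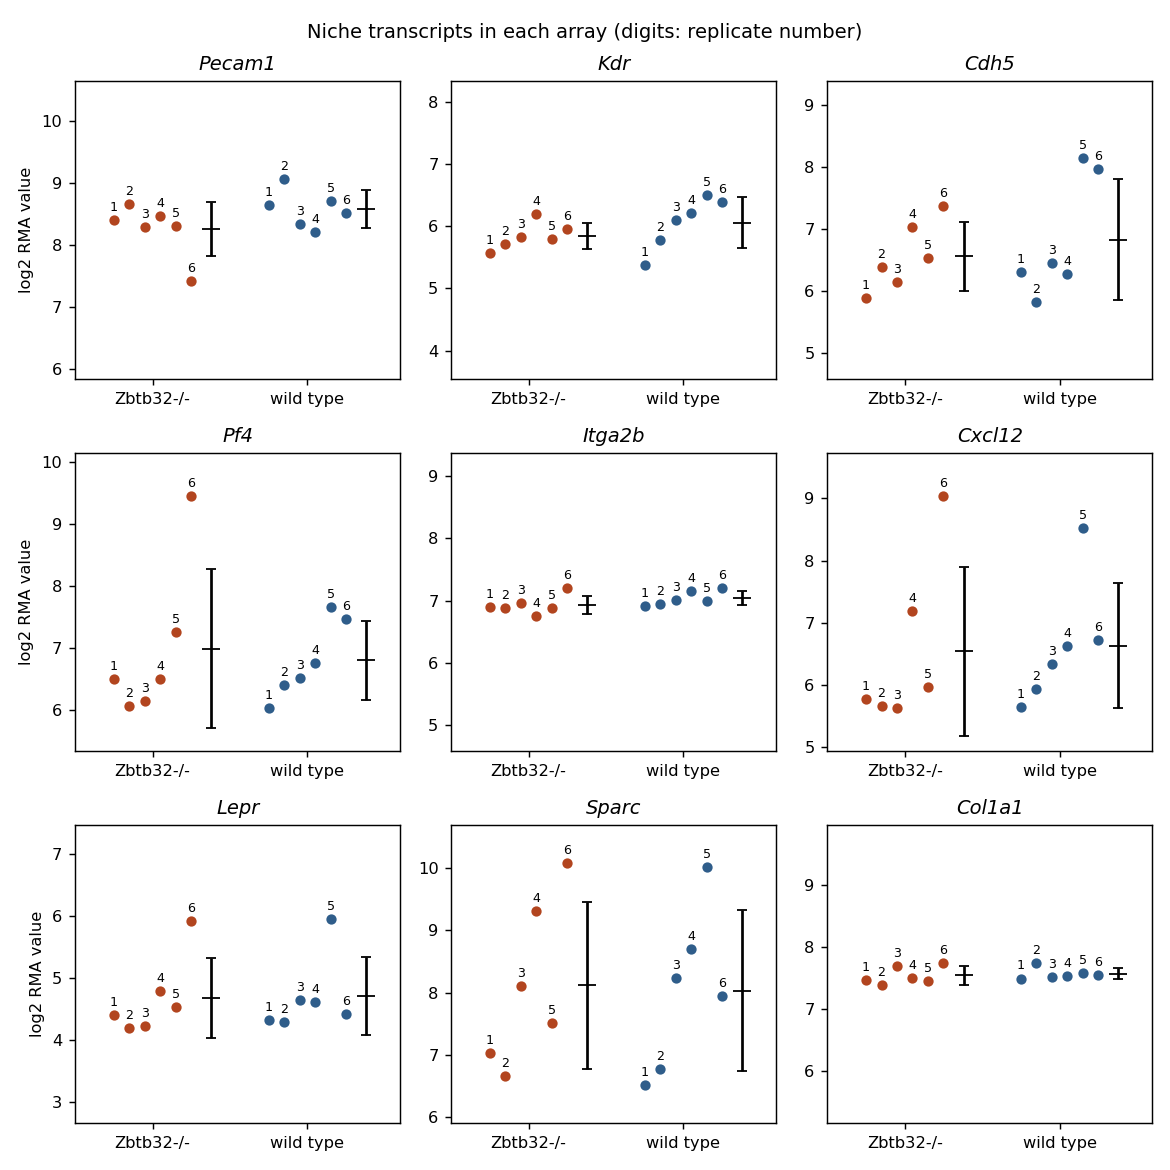
Log2 RMA values of the 9 niche transcripts on the y axis, by genotype on the x axis, with 1 point per array and its replicate number above it. Every panel spans the same number of log2 units, and the bars beside the points give mean ± SD (n = 6 each). Zbtb32-/- replicate 6 lies highest for Pf4, Cxcl12 and Sparc and lowest for Pecam1, wild-type replicate 5 lies highest for Kdr, Cdh5 and Lepr, and Itga2b and Col1a1 are nearly level.

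Among the endothelial genes, Cdh5 encodes VE-cadherin, the adhesion protein of endothelial junctions. Cdh5 ran from 5.89 to 7.37 (median 6.46) in Zbtb32-/- arrays and from 5.82 to 8.14 (median 6.38) in wild-type arrays. The array of Zbtb32-/- replicate 6, at 7.37, came after those of wild-type replicates 5 and 6, at 8.14 and 7.97. The means were 6.56 ± 0.56 in Zbtb32-/- and 6.83 ± 0.98 in wild-type arrays (SD, n = 6 each). The difference was -0.27 (95% interval -1.12 to 0.58, limma adjusted p = 0.954, two-sided exact permutation p = 0.565). Omitting wild-type replicate 5 or 6 left -0.01 or -0.04, omitting Zbtb32-/- replicate 1 or 6 left -0.13 or -0.43, and omitting wild-type replicate 2 left -0.47.

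Kdr encodes the main signalling receptor for the vascular growth factor VEGF. Kdr ran from 5.57 to 6.19 (median 5.81) in Zbtb32-/- arrays and from 5.38 to 6.50 (median 6.15) in wild-type arrays. Wild-type replicates 5, 6 and 4 were the highest, and wild-type replicate 1 was the lowest. The difference was -0.22 (95% interval -0.58 to 0.15, limma adjusted p = 0.933, two-sided exact permutation p = 0.284). Leaving out wild-type replicate 1 gave -0.35 and leaving out wild-type replicate 5 gave -0.13.

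Pecam1 encodes CD31, which sits at endothelial junctions and is carried by platelets and many leukocytes as well. Pecam1 ran from 7.42 to 8.66 (median 8.35) in Zbtb32-/- arrays and from 8.20 to 9.06 (median 8.59) in wild-type arrays. Its lowest array was Zbtb32-/- replicate 6, where 5 of the other 8 niche transcripts were highest, and its highest was wild-type replicate 2. The difference was -0.32 (95% interval -0.76 to 0.12, limma adjusted p = 0.933, two-sided exact permutation p = 0.164). It was -0.16 without Zbtb32-/- replicate 6. No relation of Pecam1 to Cdh5 was detected over the 12 arrays, with Pearson's r = -0.19 (two-sided permutation p = 0.546, adjusted p = 0.595) and Spearman's rho = -0.01 (permutation p = 0.991, adjusted p = 0.991). That r was 0.5004 without Zbtb32-/- replicate 6 and wild-type replicate 2, the arrays farthest from the Pecam1 median, 0.272 in replicates 4 to 6 alone and -0.39 in replicates 1 to 3 alone.

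The wider list of 28 endothelial genes had a mean from 6.08 to 6.50 in Zbtb32-/- arrays and from 6.13 to 6.66 in wild-type arrays, highest in wild-type replicate 5. Of its genes 5 were highest in Zbtb32-/- replicate 6 and 13 in wild-type replicate 5. Stab2, a scavenger receptor of sinusoidal endothelium, reached 8.07 and 7.52 in wild-type replicates 5 and 6, against medians of 6.38 in Zbtb32-/- and 6.43 in wild-type arrays. Emcn, the sialomucin endomucin of sinusoids and veins, reached 6.93 in wild-type replicate 5. Erg, a transcription factor of endothelium and of blood stem cells, was highest in Zbtb32-/- replicate 6 at 7.53.

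Of the 28 endothelial genes, 25 had a negative and 3 a positive genotype difference, with a median of -0.11. That median was -0.05 without wild-type replicate 5, -0.07 without Zbtb32-/- replicate 2 and -0.16 without wild-type replicate 1. Negative differences were found in 47.1% of all genes tested, and in 65.2% of the genes at or below the median level of those tested. The list had 0 genes past the adjusted threshold and 1 at an unadjusted p under 0.05. That gene was Sox18, a transcription factor of vessel development, at 5.78 to 5.94 (median 5.90) in Zbtb32-/- arrays and 6.02 to 6.34 (median 6.12) in wild-type arrays. Its groups did not overlap, and the difference was -0.26 (SE 0.07, limma adjusted p = 0.933). Over all genes tested 0.153% had groups without overlap, 0.0734% with Zbtb32-/- lower, and 4.28% had an unadjusted p under 0.05. Sox18 was named for the smallest p of its list, and its mean of 6.01 was low. Olfactory receptor probe sets, used below as a background, had a 95th percentile between 5.88 and 6.68 per array. Aplnr, the apelin receptor, differed by -0.26 (SE 0.13) and Egfl7, a protein secreted by endothelium, by -0.21 (SE 0.12), each with a limma adjusted p of 0.933.

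The megakaryocyte genes differed in their spread over the 12 arrays, 3.41 log2 units for Pf4 and 0.45 for Itga2b. Pf4 encodes platelet factor 4, a chemokine stored in platelet granules, and Itga2b encodes CD41, the alpha chain of the platelet fibrinogen receptor. In megakaryocytes both are targets of GATA1 and of factors of the ETS family, and EBF factors act in reticular stromal cells. The RefSeq promoters of both (GRCm38.p6, 250 bases before to 50 after the start) are shown because these transcripts mark the same cell type and differed in spread here. The motifs searched, on both strands, were GATAA for GATA factors, AGGAAG for ETS factors and CCCNNGGG, which reads alike on both strands, for EBF factors. Capitals mark their matches.
Pf4, chr5:90772185-90772484, plus strand: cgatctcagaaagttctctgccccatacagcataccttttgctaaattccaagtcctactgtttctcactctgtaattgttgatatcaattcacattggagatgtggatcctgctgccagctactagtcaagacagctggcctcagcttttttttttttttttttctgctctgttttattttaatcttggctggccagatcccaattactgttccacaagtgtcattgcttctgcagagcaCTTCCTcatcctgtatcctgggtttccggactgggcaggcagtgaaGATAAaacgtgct
Itga2b, chr11:102469834-102470133, minus strand: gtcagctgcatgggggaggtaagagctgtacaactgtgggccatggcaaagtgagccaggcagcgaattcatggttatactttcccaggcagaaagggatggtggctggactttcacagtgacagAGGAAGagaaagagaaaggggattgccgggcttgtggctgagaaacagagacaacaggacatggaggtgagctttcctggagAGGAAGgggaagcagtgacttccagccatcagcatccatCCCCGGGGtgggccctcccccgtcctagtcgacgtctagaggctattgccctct

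Counted from 1 at the left end of each window, Pf4 had AGGAAG on the opposite strand at bases 242 to 247 and GATAA at bases 288 to 292. Itga2b had AGGAAG at bases 126 to 131 and 208 to 213 and CCCNNGGG at bases 247 to 254, and no GATAA in this window. Among all 32851 promoter windows of this length, 25.4% hold GATAA, 35.4% AGGAAG and 13.7% CCCNNGGG, so these matches are common and describe the sequence only. None of the motifs overlap in these windows.

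Pf4 ran from 6.07 to 9.45 (median 6.50) in Zbtb32-/- arrays and from 6.04 to 7.66 (median 6.64) in wild-type arrays. The highest array, Zbtb32-/- replicate 6, stood alone at 9.45, and the next were wild-type replicates 5 and 6 at 7.66 and 7.47 and Zbtb32-/- replicate 5 at 7.27. The means were 6.99 ± 1.28 in Zbtb32-/- and 6.81 ± 0.63 in wild-type arrays (SD, n = 6 each). The difference of 0.18 (95% interval -0.89 to 1.26, limma adjusted p = 0.974, two-sided exact permutation p = 0.827) changed sign with 1 array, to -0.31 without Zbtb32-/- replicate 6. Omitting wild-type replicate 1 or 2 left 0.03 or 0.10. Omission of Zbtb32-/- replicate 1, 2, 3 or 4 or of wild-type replicate 5 or 6 left 0.28 to 0.37.

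Itga2b ran from 6.75 to 7.21 (median 6.89) in Zbtb32-/- arrays and from 6.92 to 7.20 (median 7.00) in wild-type arrays. The highest arrays were replicate 6 of both genotypes, by a small margin. The difference was -0.11 (95% interval -0.32 to 0.11, limma adjusted p = 0.933, two-sided exact permutation p = 0.175). It was -0.16 without Zbtb32-/- replicate 6 and -0.07 without Zbtb32-/- replicate 4. As a ratio the interval runs from 0.803 to 1.08.

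Of 22 measured megakaryocyte and platelet genes, 11 were highest in Zbtb32-/- replicate 6 and 8 lay more than 1 log2 unit above their median there. These 8 were Pf4, Ppbp, Thbs1, Nbeal2, Mmrn1, Nfe2, Cd9 and Plek. Several of them are not restricted to platelets: Plek and Cd9 are carried by other blood cells, and Nfe2 is a factor of both the erythroid and the megakaryocyte lineage. Nfe2 reached 9.53 in that array, against medians of 6.96 in Zbtb32-/- and 7.61 in wild-type arrays, and Cd9 reached 9.39.

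Other arrays showed other platelet genes. Wild-type replicate 4 was highest for Ppbp, a platelet chemokine, at 7.17, and wild-type replicate 6 for Clec1b, the platelet podoplanin receptor CLEC-2, at 6.35 and for Tubb1, the platelet beta tubulin, at 8.57. Tubb1 was at 6.77 in Zbtb32-/- replicate 6. Of the same list, Itgb3, Gata1 and P2ry12 were near the low end of their ranges in that array, at 6.64, 5.82 and 5.28. By genotype, 8 of the 18 genes of this list that were tested had a positive and 10 a negative difference, with a median of -0.03 and 0 genes past the adjusted or the unadjusted threshold. The median ran from -0.11 without Zbtb32-/- replicate 6 to 0.04 without wild-type replicate 4. Among those 18 genes Gfi1b, a transcription factor of the erythroid and megakaryocyte lineages, had the smallest p, with a difference of -0.20 (SE 0.15, limma adjusted p = 0.933).

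Cxcl12, the secreted stromal chemokine, was among the genes with the widest spread. Cxcl12 ran from 5.62 to 9.05 (median 5.87) in Zbtb32-/- arrays and from 5.65 to 8.52 (median 6.48) in wild-type arrays. On top were Zbtb32-/- replicate 6 at 9.05 and wild-type replicate 5 at 8.52, above Zbtb32-/- replicate 4 at 7.18 and wild-type replicates 6 and 4 at 6.73 and 6.63. The other 7 arrays lay at or below 6.34. Each genotype thus had 1 array with a high value, and the means were 6.54 ± 1.36 in Zbtb32-/- and 6.63 ± 1.01 in wild-type arrays (SD, n = 6 each).

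For Cxcl12 the genotype difference was -0.09 (95% interval -1.36 to 1.18, limma adjusted p = 0.992, two-sided exact permutation p = 0.868). As a ratio the interval runs from 0.389 to 2.27, so a 2-fold change in either direction lies within it. Leaving out Zbtb32-/- replicate 6 gave -0.59 and leaving out wild-type replicate 5 gave 0.29. Leaving out both gave -0.22, and 10 further single omissions gave values from -0.29 to 0.09. The RefSeq promoter of Cxcl12 (GRCm38.p6, 250 bases before to 50 after the start) is shown as that of the secreted factor among the stromal transcripts. It holds none of the 3 motifs and so no capitals.
Cxcl12, chr6:117168285-117168584, plus strand: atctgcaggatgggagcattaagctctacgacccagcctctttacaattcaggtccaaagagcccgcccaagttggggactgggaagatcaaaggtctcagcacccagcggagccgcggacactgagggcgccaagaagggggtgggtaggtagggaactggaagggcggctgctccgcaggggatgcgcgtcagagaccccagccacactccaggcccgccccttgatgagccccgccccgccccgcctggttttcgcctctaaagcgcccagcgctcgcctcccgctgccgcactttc

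Lepr, the leptin receptor that marks perivascular stromal cells, had the same 2 arrays on top. Lepr ran from 4.19 to 5.92 (median 4.47) in Zbtb32-/- arrays and from 4.28 to 5.95 (median 4.52) in wild-type arrays. Zbtb32-/- replicate 6 and wild-type replicate 5 were at 5.92 and 5.95, and every other array was at or below 4.79. Probe sets of 1027 olfactory receptor genes, which served as a background, had a 95th percentile between 5.88 and 6.68 per array, and Lepr lay below it in all 12. Kdr lay above it in 1 array, a wild-type one, Cxcl12 in 2 Zbtb32-/- and 3 wild-type arrays, Cdh5 in 5 and 4, and the other 5 transcripts in all 12. Prm1 and Aqp2, the brightest of the listed genes of other organs, averaged 6.93 and 6.78, beside 6.90 for Pf4 and 6.98 for Itga2b. A place above that percentile thus does not show that a transcript was present. The Lepr difference was -0.03 (95% interval -0.71 to 0.65, limma adjusted p = 0.992 over all 19938 genes, two-sided exact permutation p = 0.883). It was -0.28 without Zbtb32-/- replicate 6 and 0.22 without wild-type replicate 5, and between -0.12 and 0.07 on leaving out any other array.

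Sparc encodes osteonectin, a collagen-binding matrix protein made by stromal cells, osteoblasts, endothelium and megakaryocytes. Sparc ran from 6.66 to 10.09 (median 7.81) in Zbtb32-/- arrays and from 6.52 to 10.02 (median 8.09) in wild-type arrays. Zbtb32-/- replicate 6, wild-type replicate 5 and Zbtb32-/- replicate 4 were the highest, at 10.09, 10.02 and 9.32. The difference was 0.09 (95% interval -1.32 to 1.49, limma adjusted p = 0.992, two-sided exact permutation p = 0.907). It was -0.31 without Zbtb32-/- replicate 6, -0.15 without Zbtb32-/- replicate 4, -0.22 and -0.17 without wild-type replicates 1 and 2, and 0.48 without wild-type replicate 5. Omission of Zbtb32-/- replicate 1, 2 or 5 or of wild-type replicate 4 left 0.21 to 0.38.

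Col1a1 encodes the alpha1 chain of type I collagen, the main matrix protein of osteoblasts and fibroblasts. Col1a1 ran from 7.39 to 7.75 (median 7.48) in Zbtb32-/- arrays and from 7.49 to 7.74 (median 7.54) in wild-type arrays. It did not stand out in the arrays with high Cxcl12: wild-type replicate 5 was at 7.58, and Zbtb32-/- replicate 6, the highest, was only 0.36 above the lowest array. The difference was -0.03 (95% interval -0.25 to 0.19, limma adjusted p = 0.984, two-sided exact permutation p = 0.708). Leaving out single arrays gave differences from -0.07 to 0.01.

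**Figure D2:**
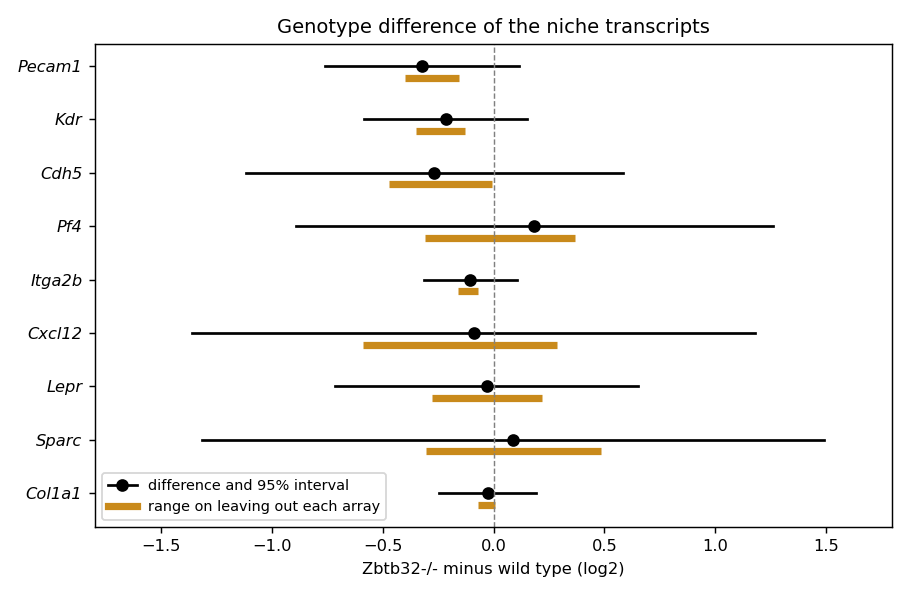
Difference between the genotypes on the x axis (Zbtb32-/- minus wild type, log2 units) for the 9 niche transcripts on the y axis. Points and black lines give the limma estimate with its 95% interval over 12 arrays, and the thick bars give the range of the estimate on leaving out each array in turn. All 9 intervals cross 0, and the bars of Pf4, Cxcl12, Lepr, Sparc and Col1a1 cross 0 as well.

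The wider stromal and osteoblast list showed which genes went with Cxcl12 and Lepr. Of 32 measured genes, 11 lay more than 1 log2 unit above their median in Zbtb32-/- replicate 6 and 10 in wild-type replicate 5. Adipoq, the adipokine adiponectin that marks reticular stromal cells, reached 8.79 and 9.0 in these arrays, beside medians of 6.31 in Zbtb32-/- and 6.09 in wild-type arrays. Igfbp5, a binding protein of insulin-like growth factors, reached 8.30 and 8.40, and Ebf3, a transcription factor of the reticular stromal cells, 7.01 and 7.16, with the next array at 6.30 for Ebf3. Vcam1, an adhesion ligand of stromal cells and of macrophages, reached 9.13 and 9.97. Bgn, the matrix proteoglycan biglycan, reached 9.91 and 8.68, and Ibsp, the bone sialoprotein, 9.65 and 8.65. These 2 genes were high in other arrays too. Ibsp was at 8.74 in Zbtb32-/- replicate 3, where Cxcl12 was at its lowest, 5.62. Bgn was at 8.12 and 8.10 in wild-type replicates 4 and 6. Kitl, the stem cell factor, was high in Zbtb32-/- replicate 6 alone, at 6.34.

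The collagen genes of the list varied little. Their standard deviations over the 12 arrays were 0.12 for Col1a1, 0.23 for Col1a2, 0.11 for Col3a1, 0.13 for Col5a2 and 0.21 for Col6a1, against 1.23 for Adipoq and 1.12 for Bgn. Col1a2 reached 7.93 in Zbtb32-/- replicate 6, its highest array, and 7.76 in Zbtb32-/- replicate 4. Some stromal genes were highest in other arrays. Mgp, the matrix Gla protein, was highest in Zbtb32-/- replicate 4 at 8.02 and next in Zbtb32-/- replicate 6 at 7.08. Lum, the proteoglycan lumican, was highest in wild-type replicate 6 at 6.02. Nes, the intermediate filament nestin, ran the other way, with its lowest values in Zbtb32-/- replicate 6 at 7.49 and in wild-type replicates 4 and 5 at 6.92 and 7.21. Alpl, the gene with the highest mean of the list, was at its lowest in wild-type replicate 5, at 7.97, and at 8.58 in Zbtb32-/- replicate 6. Sp7 was at its lowest in wild-type replicate 5 too, at 5.26, and at 5.56 in Zbtb32-/- replicate 6. Pdgfra did not stand out in these arrays, at 5.95 and 5.93. By genotype, 10 of the 25 genes of this list that were tested had a positive and 15 a negative difference, with a median of -0.01 and 0 genes past either threshold. This median lay near 0 and ran from -0.11 without Zbtb32-/- replicate 6 to 0.07 without Zbtb32-/- replicate 2.

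**Figure D3:**
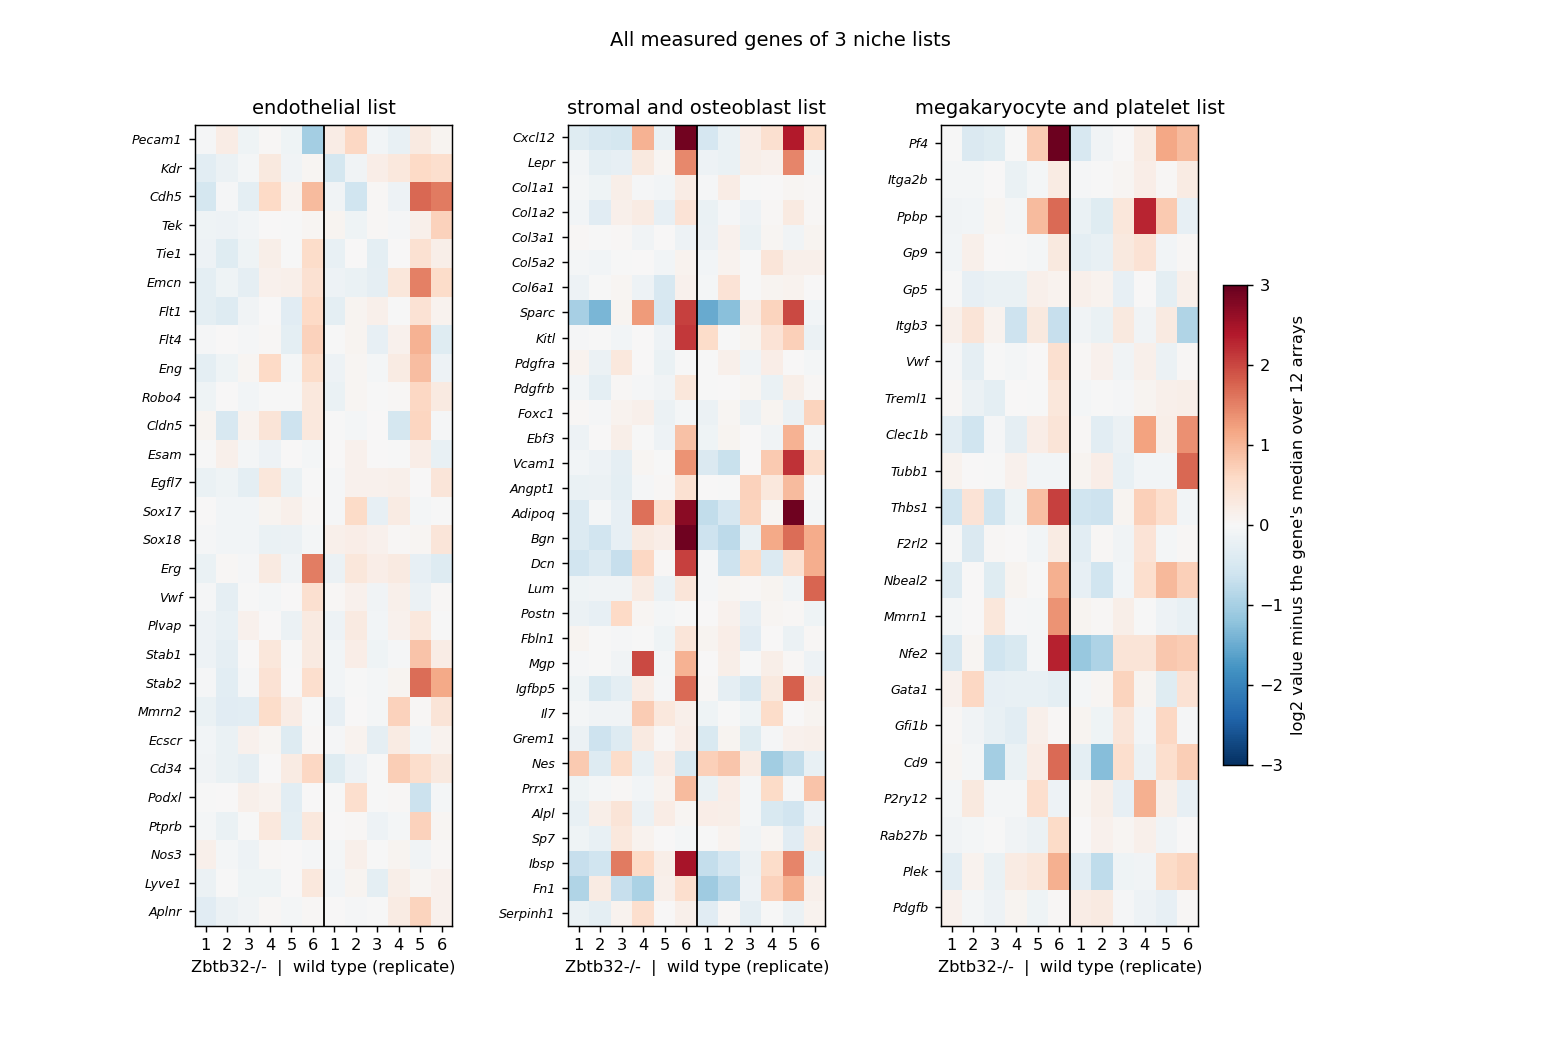
Deviation of each measured gene of the endothelial, stromal and megakaryocyte lists (rows) from its median over 12 arrays, in log2 units, with 1 column per array and Zbtb32-/- arrays left of the line. Red is above and blue below the median, and the colour scale ends at 3. Zbtb32-/- replicate 6 and wild-type replicate 5 hold most of the strong stromal values, wild-type replicates 5 and 6 the strong values of Cdh5 and Stab2, and Zbtb32-/- replicate 6 those of Pf4, Thbs1, Nfe2 and Cd9.

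Most of the stromal transcripts varied together over the arrays. All 36 pairs of the 9 niche transcripts and 27 pairs of a niche transcript with a list mean were correlated over the 12 arrays, with p-values adjusted over these 63. Among the 36 pairs, 11 had an adjusted permutation p under 0.05 for Pearson's r. For all 63, permutations ran over the 12 arrays without keeping to replicates 1 to 3 and 4 to 6. The p-values thus do not separate a relation from a difference between these sets. Cxcl12 and Lepr gave r = 0.961 (permutation p = 8e-05, adjusted p = 0.00189) and Spearman's rho = 0.895 (permutation p = 0.00013, adjusted p = 0.00819). Without Zbtb32-/- replicate 6 and wild-type replicate 5, the arrays farthest from the Cxcl12 median, r was 0.821. Split by replicate number into sets of 6 arrays, a split made with earlier results known, the value was 0.950 in replicates 4 to 6 and 0.871 in replicates 1 to 3.

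Cxcl12 with Sparc gave r = 0.899 (permutation p = 9e-05, adjusted p = 0.00189), rho = 0.811 (permutation p = 0.00223, adjusted p = 0.0201) and r = 0.817 without the same 2 arrays. Replicates 4 to 6 alone gave 0.929 and replicates 1 to 3 alone 0.493. The pair of Pf4 and Cxcl12 gave r = 0.856 (permutation p = 0.00109, adjusted p = 0.0172), rho = 0.881 (permutation p = 0.00038, adjusted p = 0.00929) and r = 0.508 without those arrays, so its size rested in part on them. In the same sets it was 0.732 and 0.765. Kdr with Cdh5 gave r = 0.753 (permutation p = 0.0044, adjusted p = 0.0305) and rho = 0.657 (permutation p = 0.0237, adjusted p = 0.0575). Without wild-type replicates 1 and 5 this came to 0.711, and within the sets to 0.659 and 0.235, so it was weak in replicates 1 to 3. Pf4 and Itga2b, both of megakaryocytes, gave r = 0.624 (permutation p = 0.0282, adjusted p = 0.0614) and rho = 0.545 (permutation p = 0.0702, adjusted p = 0.130), and r = 0.482 without Zbtb32-/- replicate 6 and wild-type replicate 5.

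The plasma cell genes were lower where several niche transcripts were higher: the list mean had a negative r with an adjusted permutation p under 0.05 for 5 of the 9, Kdr, Pf4, Itga2b, Cxcl12 and Sparc. The plasma cell list mean was low in Zbtb32-/- replicate 6 at 10.79 and in wild-type replicates 4 and 5 at 10.65 and 10.94. Replicates 4 to 6 ran from 10.65 to 11.25 in this mean and replicates 1 to 3 from 11.29 to 11.47, without overlap. Permutations over all 12 arrays did not keep to these sets, so the p-values do not separate the relation from the difference between the sets. With Cxcl12 the list mean gave r = -0.73 (permutation p = 0.00938, adjusted p = 0.0369) and rho = -0.87 (permutation p = 0.00059, adjusted p = 0.00929). Without Zbtb32-/- replicate 6 and wild-type replicate 4, the arrays farthest from the list's median, r was -0.84. Within replicates 4 to 6 the value was -0.41, and within replicates 1 to 3 it was -0.52. In the same order r was -0.30 and -0.44 for Kdr and -0.34 and -0.64 for Pf4. In replicates 1 to 3 no such relation was seen for Itga2b (r = 0.01) or Sparc (r = -0.03), and the rank correlation of Itga2b over the 12 arrays had an adjusted permutation p of 0.228. The part of the plasma cell content of a sample in the niche values was not tested.

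Markers of neutrophils and monocytes varied with some of the niche transcripts, and their part in these values was not tested. By Pearson's r, the neutrophil list mean had an adjusted permutation p under 0.05 with 3 of the 9, positive with Pf4 and Cxcl12 and negative with Pecam1, and the monocyte list mean with 5 of the 9, all positive: Cdh5, Pf4, Cxcl12, Lepr and Sparc. For Pecam1 the r of -0.72 came to 0.004 without Zbtb32-/- replicate 6 and wild-type replicate 2, so it rested on these arrays. Its rho was -0.40 (adjusted permutation p = 0.2835). The neutrophil list mean with Pf4 gave r = 0.737 (permutation p = 0.00648, adjusted p = 0.0320) and rho = 0.748 (permutation p = 0.00689, adjusted p = 0.0305), with 0.625 without Zbtb32-/- replicate 6 and wild-type replicate 2. Replicates 4 to 6 gave 0.852 and replicates 1 to 3 gave -0.16, so the relation did not hold in both sets. The monocyte list mean with Cxcl12 gave r = 0.788 (permutation p = 0.00249, adjusted p = 0.0251) and rho = 0.727 (permutation p = 0.00945, adjusted p = 0.0313). That relation came to 0.424 without Zbtb32-/- replicate 6 and wild-type replicate 5, and stood at 0.694 in replicates 4 to 6 and -0.01 in replicates 1 to 3, where it did not hold. Vcam1, high in those same 2 arrays, belongs to both the monocyte and the stromal list, and its part in the relation was not tested.

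**Figure D4:**
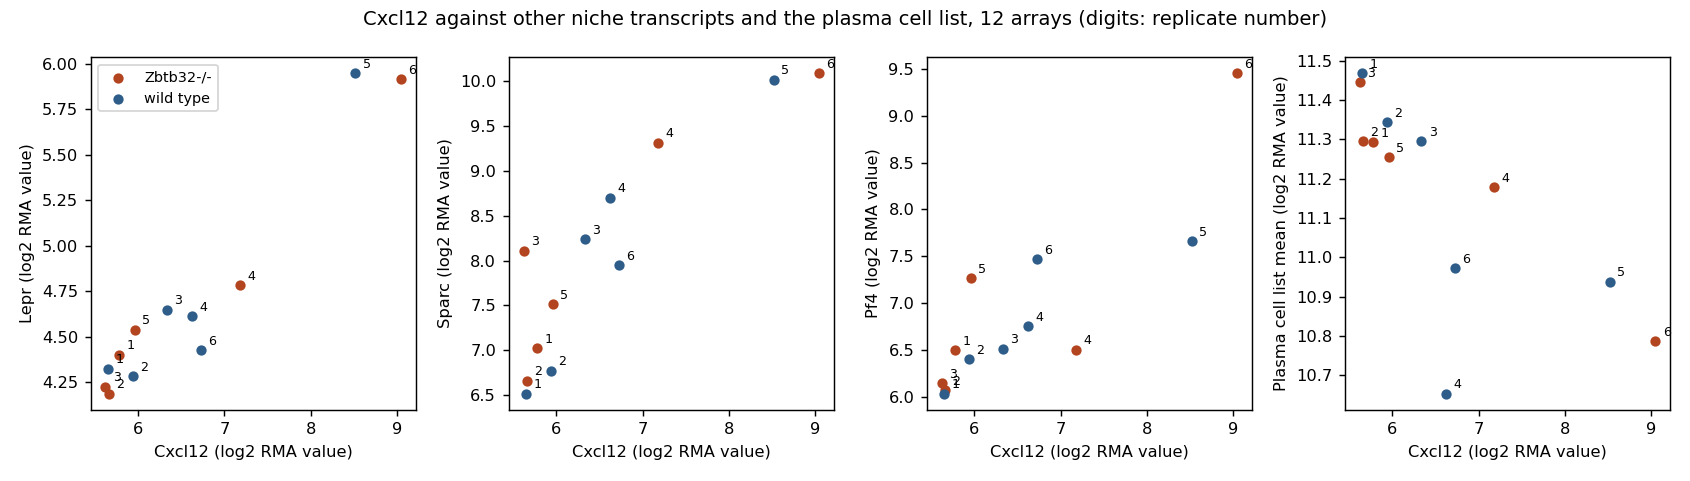
Cxcl12 on each x axis against Lepr, Sparc, Pf4 and the mean of 12 plasma cell genes on the y axes, all as log2 RMA values, with 1 point per array, coloured by genotype and numbered by replicate. Zbtb32-/- replicate 6 and wild-type replicate 5 lie at the right of each panel, where Lepr, Sparc and Pf4 are high, and over the 12 arrays r is 0.961 for Lepr, 0.899 for Sparc, 0.856 for Pf4 and -0.73 for the plasma cell genes.

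Replicates 4 to 6 and replicates 1 to 3, sets that the labels do not name as batches, each hold 3 arrays of either genotype, and 1 of the 8 niche transcripts tested differed between them. With genotype in the model, Cdh5 was higher by 1.05 in replicates 4 to 6 (SE 0.28, limma adjusted p = 0.0452), Sparc by 1.71 (SE 0.48, adjusted p = 0.05001, just above the threshold), Cxcl12 by 1.51 (SE 0.44, adjusted p = 0.0585) and Kdr by 0.45 (SE 0.13, adjusted p = 0.0515). The difference between the sets was 1.24 for Pf4 (adjusted p = 0.0694), -0.30 for Pecam1 (adjusted p = 0.346), 0.09 for Itga2b (adjusted p = 0.576) and 0.01 for Col1a1 (adjusted p = 0.954), all by limma. In that comparison 6.52% of the genes tested passed, 2.05% with a higher value in replicates 4 to 6. Within replicates 4 to 6 the genotype difference was -0.48 for Cdh5, -0.39 for Kdr, 0.08 for Sparc and 0.11 for Cxcl12, and within replicates 1 to 3 it was -0.06, -0.05, 0.09 and -0.29 in that order. The Kdr value in replicates 4 to 6 had an unadjusted limma p of 0.0303 and an adjusted p of 0.700.

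Genes whose pattern was most like that of a niche transcript were picked by their correlation over the 12 arrays among 13840 named genes (13841 for Lepr). The r values below are thus high by selection, and how high r would come by chance was not tested. Closest to Cxcl12 were Atxn7l1 (r = 0.964), Igfbp4 (0.958) and Serping1 (0.955), and closest to Lepr were Cxcl12 itself (0.961), Sh3pxd2a (0.960) and Igfbp4 (0.951). Igfbp4 encodes a binding protein of insulin-like growth factors and Serping1 the C1 inhibitor of complement. Closest to Sparc were Fabp4 (0.911), a fatty acid-binding protein of fat cells and endothelium, Anxa2 (0.910) and Adipoq (0.900). Stab2 (0.914), Asb7 (0.903) and Spata13 (0.881) came closest to Cdh5. For Pf4 these were Elovl7 (0.949), Actn1 (0.943), an actin cross-linking protein, and Wif1 (0.934), a secreted Wnt inhibitor, all highest in Zbtb32-/- replicate 6.

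The remaining members were matched by genes of other kinds. Kdr was nearest to Slc28a2 (0.946), a nucleoside transporter, S100a10 (0.899) and Ccr7 (0.878), a chemokine receptor of lymphocytes. Pecam1 was nearest to Tfb2m (0.902), a mitochondrial transcription factor, Zcchc4 (0.885) and Dgke (0.880). Itga2b lay nearest to Otulinl (0.895), Zfp516 (0.890) and Hhex (0.883), and Col1a1 to Lzts3 (0.925), Twist1 (0.904) and Mroh2b (0.900), the last 3 genes all highest in wild-type replicate 2.

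Factors through which the niche acts on plasma cells, and their receptors, were compared between the genotypes as well. Of 12 niche factors measured, 9 were tested, with 4 positive and 5 negative differences, a median of -0.09 and 0 past either threshold. Leaving out 1 array moved that median between -0.21 (wild-type replicate 1 omitted) and 0.10 (wild-type replicate 5 omitted), and over replicates 1 to 3 it came to 0.11, so its sign turned. Tnfsf13b, the survival factor BAFF, ran from 6.25 to 8.74 (median 7.01) in Zbtb32-/- arrays and from 6.35 to 8.43 (median 6.74) in wild-type arrays, highest in Zbtb32-/- replicate 6 and wild-type replicate 4. Vcam1 differed by -0.25 (SE 0.42, limma adjusted p = 0.958), Icam1, a ligand of leukocyte integrins, by -0.23 (SE 0.19, adjusted p = 0.933), and Cd80, a ligand of Cd28, by 0.27 (SE 0.25, adjusted p = 0.933). The mean of the 12 factors was 7.11 in Zbtb32-/- replicate 6 and 7.12 in wild-type replicate 5, and at most 6.74 elsewhere.

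Of 13 receptors, 11 had a positive and 2 a negative difference, with a median of 0.11 and 0 past either threshold. The median was 0.19 without wild-type replicate 1, 0.17 without Zbtb32-/- replicate 6, 0.07 without Zbtb32-/- replicate 3 and 0.02 after renewed quantile normalization. Negative differences were found in 47.1% of all genes tested and in 65.2% of those at or below the median level. Above that level positive differences thus prevailed, and the receptors were not compared with genes of like level. Cxcr4, the receptor for Cxcl12, was abundant: it ran from 11.46 to 11.997 (median 11.77) in Zbtb32-/- arrays and from 11.39 to 12.30 (median 11.66) in wild-type arrays, a difference of 0.02 (SE 0.15, limma adjusted p = 0.992). Itga4, the integrin chain that binds Vcam1, differed by 0.18 (SE 0.14), Il6ra, the interleukin 6 receptor, by 0.26 (SE 0.13) and Itgb2, an integrin chain of all leukocytes, by 0.36 (SE 0.20), each with a limma adjusted p of 0.933. Itgb2 was highest in Zbtb32-/- replicate 6, at 10.93. Cd28, a costimulatory receptor that plasma cells also use, differed by -0.19 (SE 0.26, limma adjusted p = 0.949).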

How the data were processed

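The deposited table holds the authors' log2 expression values per probe set for 12 Affymetrix mouse gene arrays, 1 per sample. The submitters' processing notes name Affymetrix Expression Console and RMA; versions, and whether the arrays were normalized together, are not given in the sources used here. Of 35556 probe sets, 21789 name 1 gene in the platform annotation, 1621 name several and 12146 are unnamed here. For each gene the brightest probe set naming it alone was used (by mean over the 12 arrays). Genes with a mean not above 5.49, the 25th percentile over all 21789 single-gene probe sets, were left out of the main fit. Per the labels' protocols, RNA was amplified with a WT Pico kit before labelling. RMA values of different probe sets are not levels on 1 scale. The number of arrays sets the precision, and the 95% interval reached a median of 0.311 to either side of the estimate.

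The test was limma 3.58.1 under R 4.3.3 (lmFit, eBayes with trend, genotype as the only term) with Benjamini-Hochberg adjustment at 0.05, and single genes also by exact permutation over all 924 assignments. P-values measure the spread between these samples. Correlations used 100000 permutations. The fit was tested on simulated data. Of 206 entries in 11 marker lists, 190 were measured. Members and lists were chosen with earlier results of these data known. Named are the 9 members, Zbtb32 and the 3 genes most correlated with each member. For each list the rule picked the 2 genes with the highest mean, the smallest p and the largest SD. Not all of those are named here, and other list genes were named after their values were seen. Alternatives were normalization, filter, probe set choice, variance model, array weights, replicate block, sets of replicates and leaving out arrays. Python 3.11.15 with pandas 2.3.3, scipy 1.17.1 and matplotlib 3.10.9 did the rest. Promoters came from RefSeq (GRCm38.p6), where 6 of the 9 genes were found.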

Additional observations from a re-analysis of the deposited data

Results flagged for a closer look

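In groups of 6 arrays, an array was singled out when its gap to the nearest other array exceeded Dixon's 95% critical share of the group's range. This was asked of 40 groups, the 9 genes and 11 list means in each genotype, and chance alone gives about 1 in 20. The rule picked 7.

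Zbtb32-/- replicate 6 stood apart from the other Zbtb32-/- arrays for 4 of them. Its Pf4 value was 9.45, with the next at 7.27, its Lepr value was 5.92, with the next at 4.79, and its niche factor list mean was 7.11, with the next at 6.39. Its Pecam1 value was 7.42, below the next at 8.30. Wild-type replicate 5 stood apart from the other wild-type arrays for Cxcl12, at 8.52 with the next at 6.73, and for Lepr, at 5.95 with the next at 4.65. Col1a1 in wild-type replicate 2 was picked at 7.74, with the next at 7.58, and the gene's lowest wild-type value was 7.49.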

How the results depend on the processing

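Under 215 settings of the 9 differences none passed an adjusted p of 0.05 (smallest 0.587), and the count of genes past it stayed at 0 with limma, except for 1 gene (Rny1) over replicates 4 to 6 only. The sign turned in 24 of the 215, among genes that were never called. Some of the 215 could not change a difference. These were the filters, the probe set choice (each gene has 1), the variance model, the replicate block and the term for the replicate sets. With array weights Sparc was -0.315, Pf4 -0.0704, Cxcl12 -0.471, Cdh5 -0.48, Lepr -0.208, Pecam1 -0.199 and Col1a1 -0.0491. Pf4 was -0.0799 over replicates 1 to 3 and -0.14 without both Zbtb32-/- replicate 6 and wild-type replicate 5, a setting added after the data were seen. Over replicates 4 to 6, Cxcl12 was 0.11, Lepr 0.0844 and Col1a1 0.00789, and Lepr was 0.0227 after renewed quantile normalization. Leaving out each array gave -0.31 to 0.48 for Sparc, -0.31 to 0.37 for Pf4, -0.59 to 0.29 for Cxcl12, -0.28 to 0.22 for Lepr and -0.069 to 0.00624 for Col1a1. The T and NK list median, -0.19, was -0.54 over replicates 4 to 6. Causes were not tested. Genotypes share replicate numbers, but same-numbered arrays deviated together with correlations from 0.02 to 0.47, not all above 0.1, and 2 of 6 correlated best with their own number, so the samples were not treated as pairs. With the replicate block 0 genes passed, and 914 had an unadjusted limma p under 0.05 against 642 without it. Each replicate number holds 1 array of either genotype, so the block could not change the differences, as of Sparc at 0.09 and Cxcl12 at -0.09. Kdr had no value under the stricter filter. With 6 arrays a group, intervals of Sparc, Cxcl12 and Pf4 wider than 1 log2 unit to a side limit what these data can show.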

Other observations

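The lists of blood cell types not described above also held 0 genes past the adjusted limma threshold. The differences, Zbtb32-/- minus wild type, were positive for 9 and negative for 3 of 12 plasma cell genes (median 0.14), and positive for 12 and negative for 1 of 13 neutrophil genes (median 0.35). The plasma cell median was 0.02 without wild-type replicate 4 and -0.01 over replicates 1 to 3. The neutrophil median was -0.03 without Zbtb32-/- replicate 6, -0.10 without wild-type replicate 2, 0.08 without wild-type replicate 1 and 0.01 with array weights or over replicates 4 to 6, and 0.56 at most, without wild-type replicate 4. For monocyte and macrophage genes 4 were positive and 10 negative (median -0.13), and all 11 measured erythroid genes were positive (median 0.23). The monocyte median ran from -0.34 without Zbtb32-/- replicate 6 to 0.13 without wild-type replicate 5, and came to 0.32 in replicates 1 to 3 alone and to -0.57 in replicates 4 to 6 alone. The erythroid median was 0.47 without wild-type replicate 3. Of 11 T and NK cell genes tested, 1 was positive and 10 were negative (median -0.19), with 2 at an unadjusted p under 0.05, and of 12 genes of other organs 4 were positive and 8 negative (median -0.06), with 1 at such a p. The 2 T and NK cell genes were Il7r, at -1.04, and Cd5, at -0.19, each with a limma adjusted p of 0.933. The T and NK median was -0.02 with wild-type replicate 6 omitted and -0.29 with wild-type replicate 2 omitted. Omitting wild-type replicate 2 or 3 left -0.0035 or -0.10 for the genes of other organs. Over all genes tested 47.1% of the differences were negative, and 4.28% had an unadjusted p under 0.05. At or below the median level of those tested 65.2% were negative, so above it positive differences prevailed. The counts by direction in these lists were not compared with genes of like level.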
